A study of Homo sapiens with 2 samples.

Results

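The integrin and laminin genes are described here across the lineages of blood-generating heart-forming organoids (BG-HFOs). The 37 genes were taken by symbol from a list of family members, out of 36601 genes in each count matrix. The rule is family membership and uses no measured value, although the family was picked with earlier results of these data known. They comprise 26 integrin subunit genes (18 alpha and 8 beta) and 11 laminin chain genes (5 alpha, 4 beta and 2 gamma). The data were single-cell RNA-sequencing libraries of 2 individual BG-HFOs at day 14, named organoid 32.7 and organoid 33.10. Both organoids were grown from the human embryonic stem cell line hES3 NKX2.5-eGFP, in which a green fluorescent protein gene reports the cardiac factor NKX2.5. Aggregates of these cells were embedded in Matrigel and driven towards heart, vessel and blood fates by biphasic control of WNT signalling with haemato-endothelial cytokines and growth factors. Every cell therefore shares that line, that matrix and that treatment, and there was no untreated group. All comparisons are between cell lineages within these organoids. The 2 organoids are the only replicates, and 1 line is represented. The p-values rest on a spread between these 2 specimens that was estimated over all fitted lineages together. It is not the spread of the lineages compared.

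Integrins are cell-surface receptors made of an alpha and a beta subunit, which bind extracellular matrix or ligands on other cells and connect them to the actin cytoskeleton. The alpha subunit largely sets the ligand, so that the partners of ITGB1 include collagen, laminin and fibronectin receptors, whereas the ITGB2 group is typical of leukocytes and ITGA2B with ITGB3 forms the platelet fibrinogen receptor. Laminins are secreted trimers of an alpha, a beta and a gamma chain that build the basement membrane under endothelium and epithelium and around muscle cells. The embryonic heart and vessels rest on such membranes, and blood cells change their integrins as they leave the vessel wall. Matrigel is itself a laminin-rich matrix, but its laminin is protein and was not measured by these RNA counts.

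Cells were assigned to lineages by unique molecular identifier (UMI) counts of lineage genes, none of them a member. AE denotes arterial and VE venous endothelial cells, CM cardiomyocytes, EPI pro-epicardial/septum transversum cells, MES mesenchymal cells and EPIMES cells that reached both of the last 2 minima. PFE denotes posterior foregut endoderm. On the blood side the gates were ERY (erythroid), MK (megakaryocytes), MAC (monocytes/macrophages), GRAN (neutrophil precursors), EO (eosinophils) and HPC. The HPC gate took cells that carried MYB, SPN, PTPRC or GFI1 and reached no other gate. Of 36685 cells kept from 16866 and 19948 barcodes, 16467 fell in a named gate. Cells that reached the minima of several lineages, 4556 in organoid 32.7 and 5609 in organoid 33.10, were left out. They held 91083401 and 116324953 UMIs, at medians of 16321.5 and 16939 UMIs per cell. Endothelial cells outside the AE and VE gates (1218 and 1512) and cells in no gate (3638 and 3685) were left out as well. A total of 100 barcodes occurred in both libraries. The libraries held 191152562 and 233818881 UMIs, of which the members made up 0.216% and 0.213%. Summed UMIs per lineage and organoid were expressed as counts per 1000000 UMIs (CPM), and the fitted gates ran from 1875 AE cells in organoid 32.7 down to 25 GRAN cells in organoid 33.10. PFE had 86 and 11 cells and was not fitted, so that statements on all lineages cover the other 12. In bulk sums of this kind, fewer expressing cells and less RNA per cell cannot be told apart.

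Marker genes that the gates did not use followed their labels in most lineages. The check for AE and VE used the same genes (PECAM1, KDR and TEK), so it cannot tell arterial from venous cells. Those labels rest on the gate genes alone. NKX2-5 stood at 308 and 262 CPM in CM, PECAM1 at 459 and 463 CPM in AE, GP1BA at 130.0 and 123 CPM in MK, and TYROBP at 1218 and 1163.5 CPM in MAC. The HPC gate did not follow its label evenly. The progenitor gene KIT was at 2.64 and 3.07 CPM there, and LYZ, a lysozyme gene of myeloid cells, was at 5312.5 CPM in organoid 32.7 against 406 CPM in organoid 33.10. That gate is therefore treated by its rule, as MYB-, SPN-, PTPRC- or GFI1-bearing cells. The EPI gate of organoid 32.7 also held myeloid UMIs, with LYZ at 849 CPM against 25.8 CPM in organoid 33.10. In it, 35 of 225 cells carried at least 10 UMIs of the MAC and GRAN lists, against 8 of 391 cells in organoid 33.10. Free RNA was not removed, and the embryonic globin HBZ reached 86.1 and 157 CPM in AE against 50719.6 and 42899.8 CPM in ERY.

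A member was called present where it reached 20 CPM in both organoids. By that measure 26 of the 37 genes were present in at least 1 of 12 lineages, 19 of them integrins and 7 laminins. The remaining 11 were ITGA10, ITGAD, ITGAX, ITGB4, ITGB6, ITGB7, ITGB8, LAMA3, LAMA5, LAMB3 and LAMB4. Of these, ITGB8 had its highest mean in EPIMES, 25.2 CPM with an SD of 7.7 CPM. Once the gene ALDH1A2 was left out of the EPI gate list, a choice made after seeing the data, ITGB8 (21.6 and 25.1 CPM) and LAMA5 reached the minimum in EPI. AE, VE, CM and EPIMES each had 15 members present, MES had 14, EPI and MK had 12, MAC had 10, HPC and GRAN had 8, EO had 7 and ERY had 3. Only ITGB1 and ITGAE were present in all 12. The summed integrin level was 2587 and 2513 CPM in AE, 2303 and 2481 CPM in EPIMES and 1867 and 2694 CPM in MES, where the organoids lay farther apart than AE did from EPIMES. It was lowest in ERY (398 and 377 CPM). The summed laminin level was highest in CM at 709 and 807 CPM, followed by AE at 454 and 439.9 CPM, whereas ERY held 36.9 and 38.3 CPM.

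**Figure D1:**
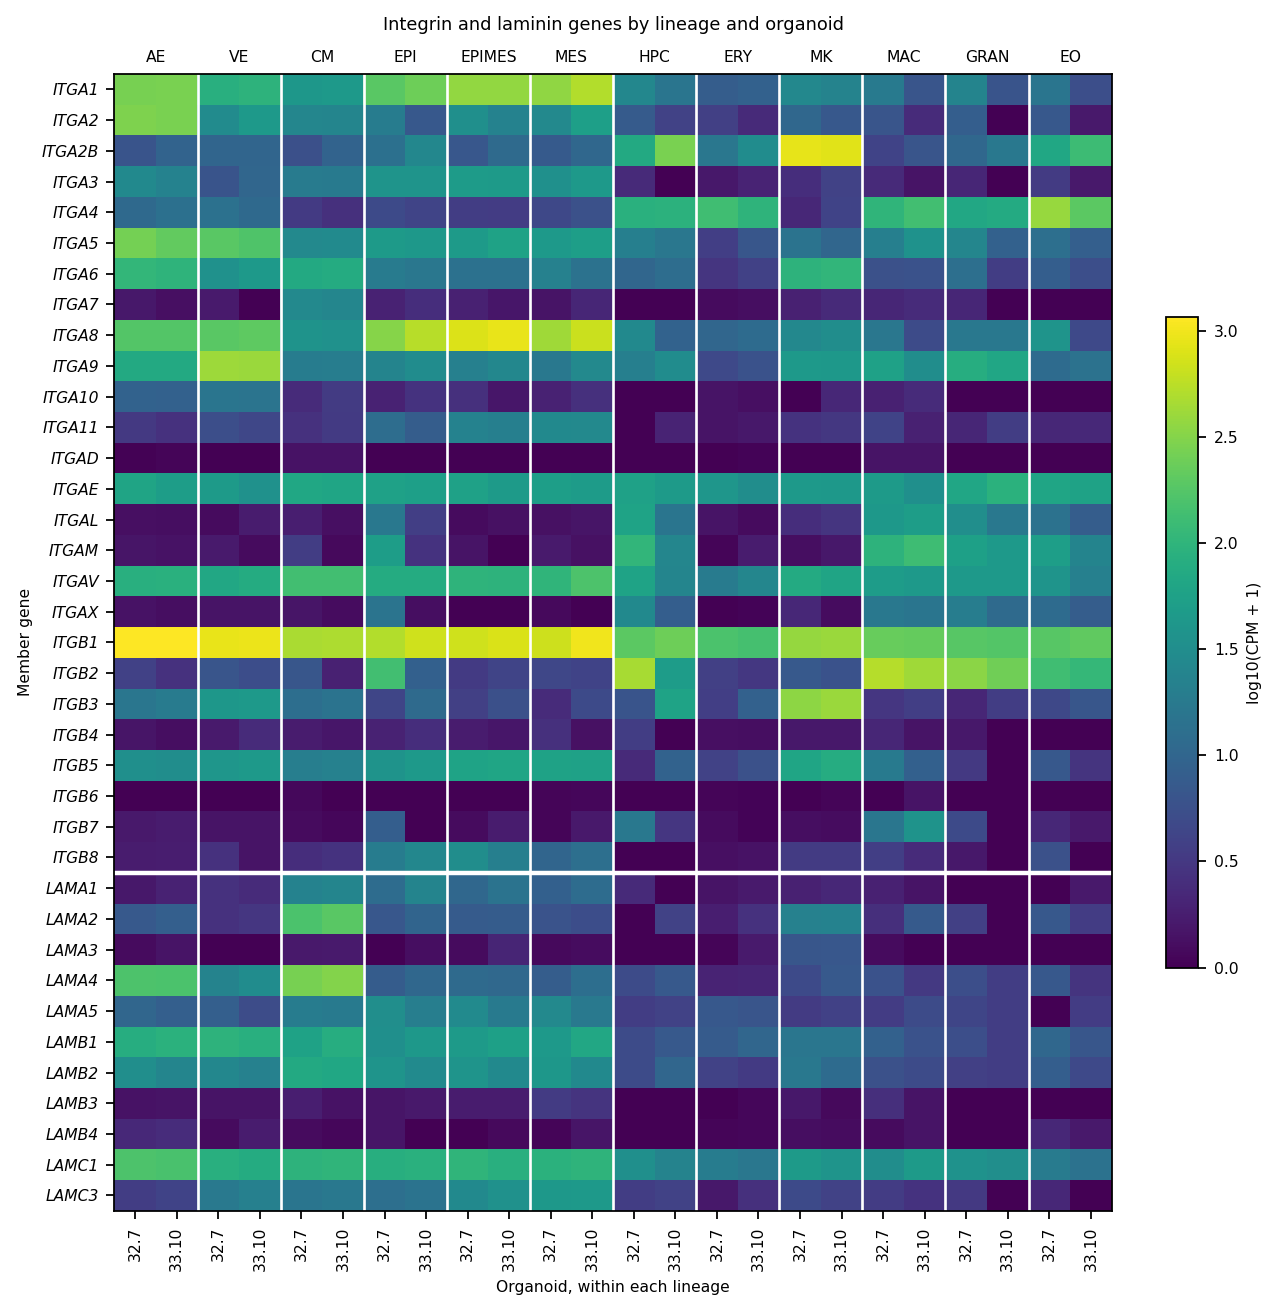
Level of each of the 37 integrin and laminin genes (rows) in each organoid (paired columns) of 12 gated lineages, as log10(CPM + 1) of summed UMIs. The ITGB1 row is bright in every column, ITGB2 in the myeloid columns and ITGA2B with ITGB3 in MK. Most laminin rows, LAMC1 among them, are darker in the blood columns, but LAMA2 and LAMA3 are brighter in MK than in most non-blood columns.

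ITGB1, the shared beta subunit of most matrix receptors, stood at 1154 CPM in each AE sample. Its level was 905 and 932 CPM in VE, 476 and 489 CPM in CM, 379 and 400.4 CPM in MK, and 155 and 143 CPM in ERY. The AE values lay above those of every other gate in both organoids, and the ERY values below. The organoids lay farther apart in MES (678 and 1006 CPM) and EPI (515 and 702 CPM).

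The collagen receptors split between endothelium and stroma. ITGA1 was highest in MES (360.2 and 515 CPM) and EPIMES (367 and 363 CPM), whose ranges overlapped, and reached 273 and 277 CPM in AE. ITGA2, by contrast, stood out in AE among the fitted lineages: 296 and 281 CPM there against at most 52.6 CPM in any sample of the other 11. The PFE cells that were not fitted held 12.6 and 252 CPM, from 7 and 36 UMIs. ITGA11 was present in MES (27.5 and 26.5 CPM) and EPIMES (22.0 and 20.1 CPM) alone, and ITGA10 did not pass 14.7 CPM anywhere. The level of ITGA1 carries a reservation, because the protein-coding gene PELO overlaps it on the same strand and intronic reads were counted. The same holds for ITGB3, which the protein-coding gene ENSG00000259753 overlaps on its strand.

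Among the laminin-binding alpha subunits, ITGA6 was highest in AE (104 and 97.3 CPM) and MK (95.6 and 104 CPM), which did not separate, followed by CM at 71.9 and 76.4 CPM. ITGA7, the laminin receptor subunit of muscle, was present in CM alone at 26.3 and 24.8 CPM and did not exceed 1.5 CPM in any sample of the other 11 lineages. ITGA3 was a gene of stroma and AE, with 47.2 and 46.3 CPM in EPIMES and 27.4 and 22.0 CPM in AE.

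Of the fibronectin and related receptors, ITGA5, the classical fibronectin receptor subunit, was highest in AE (263 and 214 CPM), then VE (189.9 and 163 CPM), and the next lineage did not exceed 57.9 CPM. ITGA8, which binds nephronectin and other ligands with an RGD sequence, reached 799 and 922 CPM in EPIMES, 422 and 659.9 CPM in MES and 317 and 534 CPM in EPI. It was also present in both endothelial gates, at 175 and 176 CPM in AE and 187 and 198 CPM in VE. ITGA9 was highest in VE, at 415 and 403 CPM against 70.7 and 71.1 CPM in AE. No other lineage passed 79.5 CPM for it, a value seen in GRAN. ITGAV, which pairs with several beta subunits, was present in 11 lineages and missed the minimum only in ERY, at 17.8 and 24.2 CPM.

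ITGA4, the receptor subunit for VCAM1 and fibronectin on leukocytes, was confined by the presence measure to 5 blood gates. It stood at 387 and 192 CPM in EO, 98.6 and 137 CPM in MAC, 131 and 95.9 CPM in ERY, 85.8 and 91.2 CPM in HPC and 68.3 and 73.8 CPM in GRAN. MK was the exception among blood cells, with 1.19 and 3.16 CPM, lower than the 9.99 and 12.5 CPM of AE.

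ITGA2B and ITGB3 were both highest in MK. ITGA2B was at 889 and 834 CPM there, and at 71.3 and 276 CPM in HPC, so that the HPC samples differed from each other but neither reached MK. ITGB3 was at 344 and 396 CPM in MK and 41.2 and 44.5 CPM in VE, the only other lineage where it was present in both organoids. The HPC samples lay far apart for it, by a log2 ratio of 3.49 in size. The leukocyte subunit ITGB2 was at 519 and 419.9 CPM in MAC, 334 and 250.5 CPM in GRAN and 132 and 109 CPM in EO. Its partner ITGAM, of the complement receptor, stood at 94.98 and 130.1 CPM in MAC and 54.3 and 44.8 CPM in GRAN. In HPC the ITGAM mean was 63.1 CPM with an SD of 54.5 CPM, and the HPC and MAC ranges overlapped. The HPC samples lay apart for ITGB2 too, and the higher one fell within its MAC range. ITGAL, which binds ICAM proteins, was present in both organoids in MAC alone (42.1 and 49.1 CPM). The HPC samples, with a mean of 36.9 CPM and an SD of 31.8 CPM, overlapped that range. ITGAE, whose known partner is ITGB7, lay between 30.9 and 89.7 CPM in every sample of the 12 lineages, while ITGB7 did not pass 15.8 CPM outside MAC, where it was at 14.8 and 36.9 CPM.

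**Figure D2:**
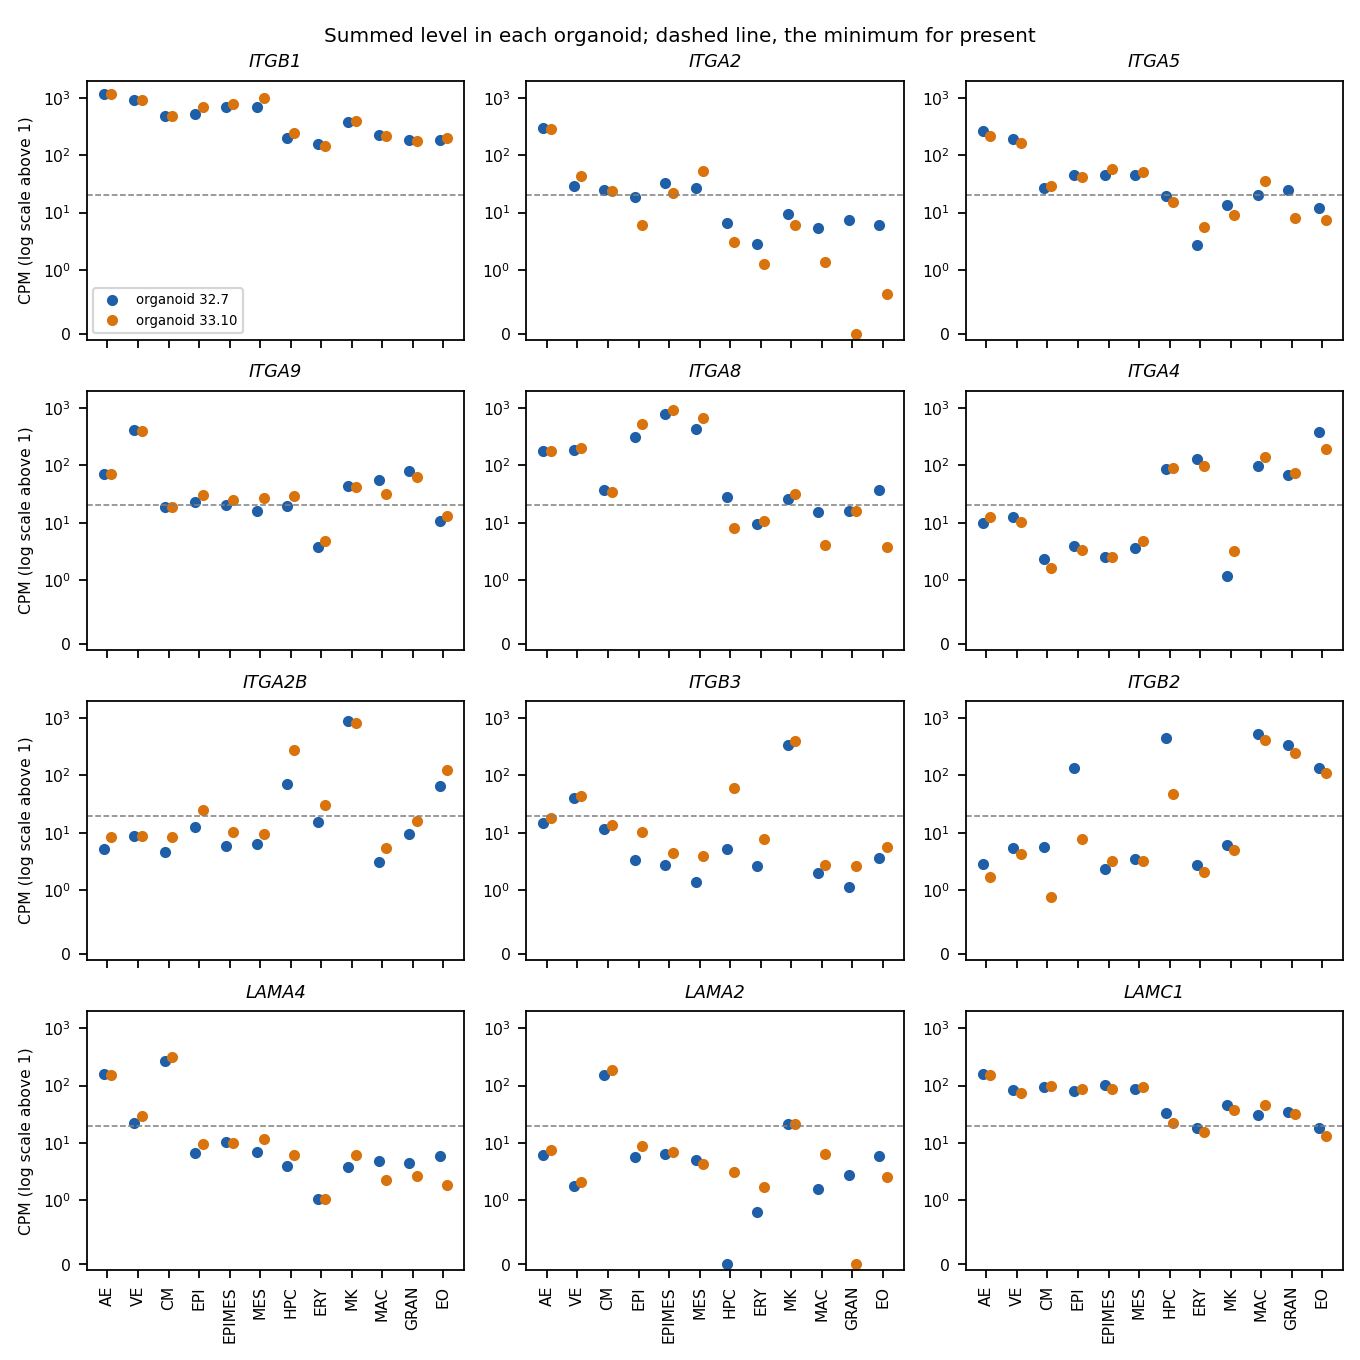
Summed level (CPM, log scale above 1) of 12 members in each of 12 lineages, with 1 point for each organoid and a dashed line at the 20 CPM used for presence. ITGA2 stands out in AE, ITGA9 in VE, LAMA2 in CM and ITGA2B with ITGB3 in MK, and the organoids lie apart for ITGB2 in EPI and HPC.

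Of the laminin alpha chains, LAMA4, found in endothelial and muscle basement membranes, was at 274 and 314 CPM in CM, 161 and 156 CPM in AE and 22.3 and 29.6 CPM in VE. LAMA2, the main alpha chain around muscle fibres, was at 155 and 189.8 CPM in CM and 21.1 and 21.7 CPM in MK, and did not exceed 8.69 CPM in the other 10 lineages of the fit. LAMA1, the chain of early embryonic basement membranes, was present among the 12 fitted lineages in CM alone at 21.9 and 23.8 CPM, although 1 EPI sample reached 23.1 CPM and the PFE cells that were not fitted held 46.8 and 112 CPM. LAMA5 missed the presence minimum in every lineage and came nearest in EPI, at 31.4 and 19.2 CPM. With the gene ALDH1A2 left out of the EPI list, a choice made after seeing the data, it just reached the minimum there, at 37.4 and 20.03 CPM. LAMB1 was highest in VE (93.3 and 84.0 CPM) and AE (81.0 and 89.0 CPM), with overlapping ranges. LAMB2 was highest in CM at 71.4 and 66.2 CPM. LAMC1, the most widely used gamma chain, was present in 10 lineages, from 160.4 and 150.4 CPM in AE to 33.0 and 22.5 CPM in HPC. LAMC3 was present in MES (42.3 and 43.8 CPM) and EPIMES (27.1 and 34.5 CPM). LAMA3, LAMB3 and LAMB4 did not exceed 5.76 CPM in any sample of the 12 lineages.

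The arterial and venous endothelium were compared first, with each value a log2 difference ± SE. The p-values came from the quasi-likelihood test of edgeR, adjusted over 18248 genes by the Benjamini-Hochberg procedure, and a gene was called at an adjusted p under 0.05. A total of 32 members passed the filter on low counts, which ITGAD, ITGB4, ITGB6, LAMB3 and LAMB4 did not. AE cells carried more of ITGA1, ITGA2, ITGA3 and ITGA6, which are alpha subunits of collagen and laminin receptors, and more LAMA4, and VE cells more ITGA9. Of the 32 members, 10 were called, 7 higher in AE and 3 higher in VE, beside 14.8% of all genes called (7.32% higher in AE and 7.53% higher in VE). ITGA2 was higher in AE by 3.09 ± 0.41 (adjusted p = 3.51e-05) and LAMA4 by 2.70 ± 0.23 (adjusted p = 1.81e-07). ITGA1, LAMA2, ITGA3, ITGA6 and LAMC1 were also higher in AE, by 1.05 to 1.91. ITGA9 was lower in AE by a log2 difference of -2.44 ± 0.23 (adjusted p = 6.28e-07), and LAMC3 by -2.59 ± 0.27 (2.60 and 3.14 CPM in AE against 16.2 and 20.7 CPM in VE). ITGB3 was lower in AE (-1.29 ± 0.41, adjusted p = 0.0426), a call that DESeq2, doubled gate minima and an EPI list without ALDH1A2 ended, with adjusted p-values from 1.27e-07 to 0.171 over the alternatives. For the other 22 members, ITGA5 and ITGB1 included, no difference was called. The adjusted p was 0.176 for ITGA5 (0.52 ± 0.25) and 0.0944 for ITGB1 (0.42 ± 0.16). With the organoid as a block the ITGB1 difference was called at an adjusted p of 0.0492, and over all alternatives this value lay between 0.0461 and 0.160. ITGAE (0.56 ± 0.21, adjusted p = 0.0801) was called only with the block, at 0.0101, and without the filter on low counts.

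Cardiomyocytes differed from AE in both directions among the members, at a share close to that of all genes. CM had more of 6 laminins, LAMA1, LAMA2, LAMC3, LAMB2, LAMA5 and LAMA4, and of ITGA7, ITGB8 and ITGAV, and less of 8 integrins and LAMC1. Of 32 members, 9 were called higher and 9 lower, beside 53.4% of all genes (28.3% higher and 25.2% lower), so that the share of members called was close to the background. ITGA7 was higher in CM by 5.76 ± 0.40 (adjusted p = 3.88e-09), LAMA1 by 4.93 ± 0.36 (adjusted p = 3.18e-09) and LAMA2 by 4.74 ± 0.29 (adjusted p = 2.46e-10). ITGA2 was lower in CM, at -3.51 ± 0.41, as were ITGA5 at -3.04 ± 0.27 and ITGA1 at -2.64 ± 0.32, with adjusted p-values of 8e-07, 2.06e-08 and 1.21e-06. ITGB1 itself was lower by a smaller step (-1.18 ± 0.16, adjusted p = 7.08e-06). LAMA4 (0.96 ± 0.20) lost its call when a share of the library's own profile was subtracted as free RNA, and ITGB8 (1.23 ± 0.48, adjusted p = 0.0405) when gate minima were doubled or the cells with most UMIs left out. ITGB5 (-0.56 ± 0.25) was called with the organoid as a block, at an adjusted p of 0.0416. The median member difference was 0.07, beside 0.05 over all genes tested. The laminins alone had a median of 1.18 and the integrins alone one of -0.37.

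Megakaryocytes and erythroid cells, which share a precursor, differed in most members. MK had more of 22 members, among them both platelet receptor subunits, ITGA6, ITGA9, ITGB5 and LAMA2, and ERY more of ITGA4 and LAMA5. That made 24 of 32 members called, beside 47.6% of all genes (25.8% higher in MK and 21.7% higher in ERY). ITGB3 was higher in MK by 5.84 ± 0.49 (adjusted p = 2.35e-08), ITGA6 by 5.10 ± 0.27 (adjusted p = 1.14e-10) and ITGA2B by 5.03 ± 0.48 (adjusted p = 1.31e-07). ITGB5, which pairs with ITGAV, rose from 3.01 and 4.80 CPM in ERY to 61.4 and 77.4 CPM in MK (3.90 ± 0.30, adjusted p = 9.43e-09). LAMA2 was higher in MK by 3.76 ± 0.36 (adjusted p = 1.29e-07). LAMA3 was too, by 3.44 ± 0.57, although its MK level was only 5.64 and 5.76 CPM. ITGA4 went the other way at -5.69 ± 0.35 (adjusted p = 6.58e-10), with MK below ERY in both organoids. ITGAL was not called (adjusted p = 0.055), but it was called with the organoid as a block, at an adjusted p of 0.0195, and in 8 of 10 alternatives in all. Of the smaller MK differences, those of LAMA4, ITGA1, ITGA11, LAMC3, ITGA3, ITGA2, ITGA7, LAMB1 and ITGA8 each lost the call under at least 1 alternative. LAMA4, at 3.86 and 6.13 CPM in MK, had an adjusted p of 1 once a share of the library profile was subtracted, and adjusted p-values from 8.6e-09 to 1 over its alternatives. A gate with less than the amount taken is left without counts by that subtraction, so this value need not reflect the size of the difference. The median of all genes in this comparison was 0.16 and that of the members 1.45. Markers of non-blood cells were also higher in MK than in ERY. All 4 CM markers were (summed 194 and 142 CPM against 59.6 and 45.7 CPM, a log2 ratio of means of 1.67), as were 3 of 4 MES markers (summed 126 and 111 CPM against 49.3 and 47.6 CPM, 1.29), with COL1A1 at 50.5 and 47.4 CPM in MK. Of the EPI markers 3 of 4 were higher too, while their sum was lower in MK (-1.23), where KRT19 was at 25.8 and 26.3 CPM against 82.7 and 93.6 CPM. That CM ratio is of mean CPM, whereas the member differences come from the edgeR fit with its normalization. The measures are unlike, so members near the ratio, such as ITGA11 and ITGA1, cannot be placed above or below it. Called MK differences with a fitted value no larger than that CM ratio were those of ITGA11 (1.66), ITGAV (1.45), ITGA1 (1.44), ITGA3 (1.35) and ITGA8 (1.29). So were those of LAMC3 (1.21), ITGB1 (1.17), ITGA5 (1.11), LAMC1 (1.08) and LAMB1 (0.66). All of these members kept their calls after subtraction of 10% of the library profile. That step takes the same CPM from MK and ERY of an organoid. The ratio of the higher to the lower value therefore widens by construction, and the step cannot address a larger share of free RNA in MK. The part of larger or unequal shares was not tested.

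**Figure D3:**
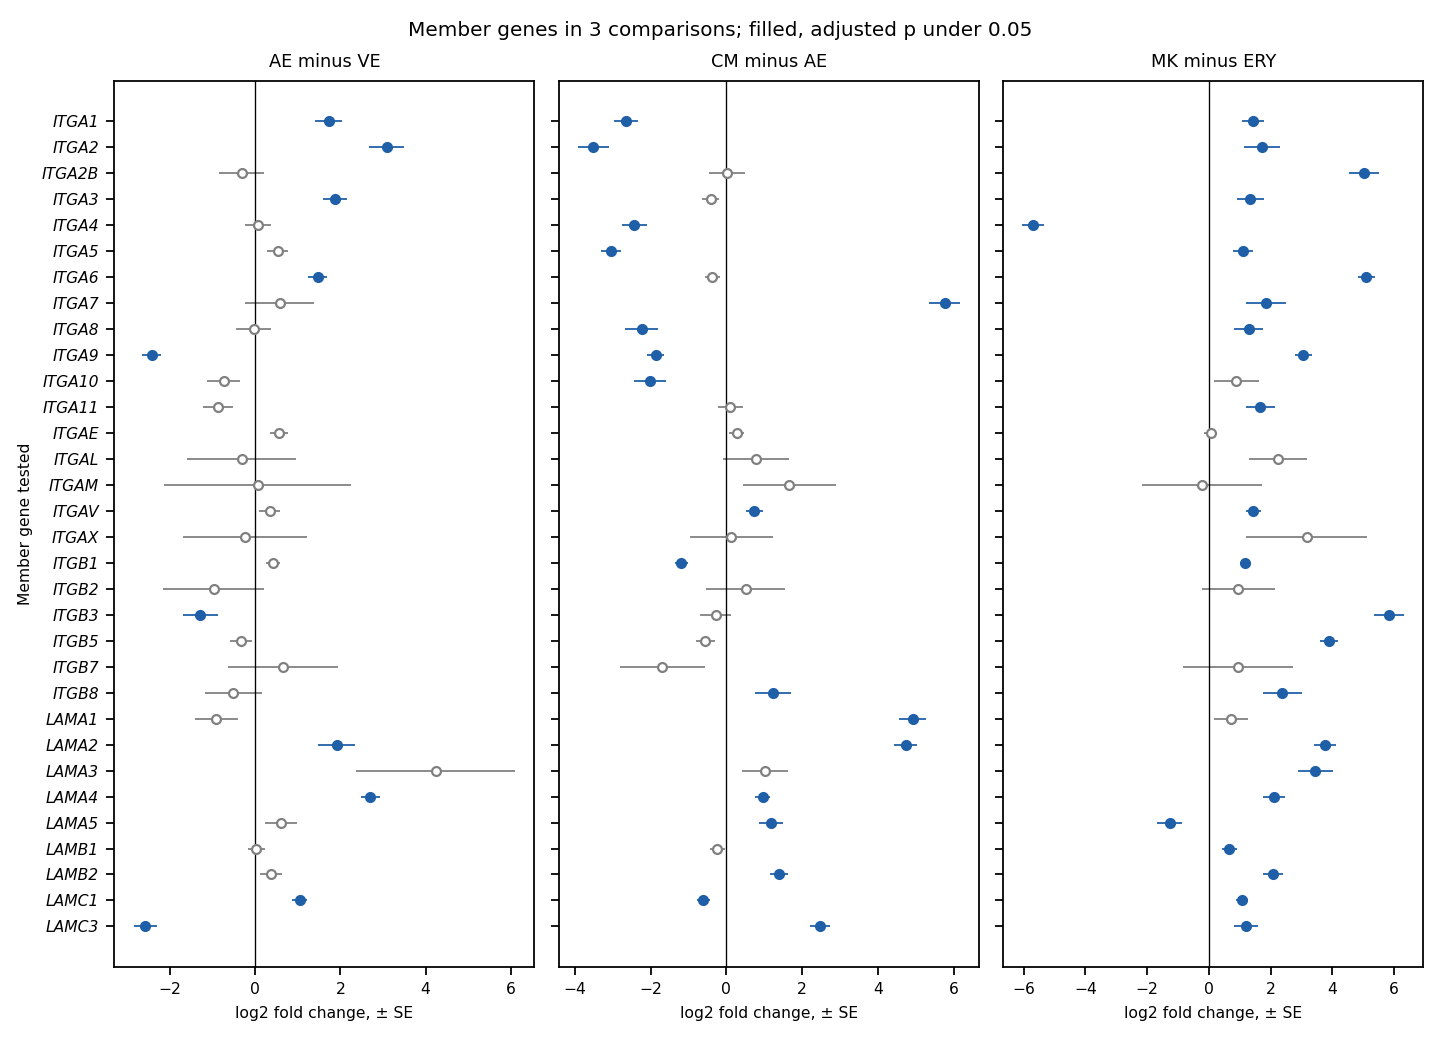
Log2 fold change ± SE of the 32 tested members in AE against VE, CM against AE and MK against ERY, from edgeR, with filled points called at an adjusted p under 0.05 and open points not called. Called points lie on both sides of 0 in CM against AE, and almost all lie to the right in MK against ERY, except ITGA4 and LAMA5.

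The promoter of ITGA2B is shown because its transcript reached its highest level in MK. That of ITGAM is shown because its mean level was highest in MAC, although the HPC samples overlapped the MAC range. RefSeq promoter entries were matched for 26 of the 37 members, among them neither ITGB3 nor ITGB2. The 250 bases before each start are printed, 5′ to 3′ on the gene's strand, with capitals for matches to the motifs searched. In GRCh38 they are chr17:44389650-44389899 on the minus strand for ITGA2B and chr16:31259725-31259974 on the plus strand for ITGAM.
ITGA2B: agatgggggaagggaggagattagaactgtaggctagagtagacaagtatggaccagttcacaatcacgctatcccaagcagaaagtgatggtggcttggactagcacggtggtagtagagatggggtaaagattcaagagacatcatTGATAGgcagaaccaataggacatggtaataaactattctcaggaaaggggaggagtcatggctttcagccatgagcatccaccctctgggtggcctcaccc
ITGAM: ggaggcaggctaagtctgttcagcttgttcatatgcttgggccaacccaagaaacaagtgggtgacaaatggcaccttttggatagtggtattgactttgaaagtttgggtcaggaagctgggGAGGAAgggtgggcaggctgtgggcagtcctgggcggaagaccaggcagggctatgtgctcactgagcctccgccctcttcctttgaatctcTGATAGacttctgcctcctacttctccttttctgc
Searched on both strands over the 250 bases before and 50 after the start were AGATAA for GATA factors, GAGGAA for ETS factors and TGTGGT for RUNX factors. After these were seen, 3 variants of the GATA motif were added. The first was AGATAG. Another was TGATAA. The last was TGATAG. In ITGA2B only the last occurred, at position -102 from the start, a motif present in 5.97% of 27305 promoters and in 3 of the 26 member promoters (ITGA2B, ITGA6 and ITGAM). AGATAG was present in 6.79% of all and in 1 member (ITGB7). TGATAA was present in 7.76% of all and in 0 members. ITGAM held GAGGAA at position -127 and TGATAG at position -35, and past the printed stretch TGTGGT at position 25 and TTCCTC, the reverse complement of GAGGAA, at position 30. GAGGAA occurred in 27.6% of all promoters and in 10 of the 26 member promoters, and TGTGGT in 13.1% and in 2 (ITGA6 and ITGAM). AGATAA occurred in 10.5% of all and in LAMA4 alone among the members. These are matches of letters and no binding was measured.

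Blood progenitors emerge from arterial-type endothelium, and the HPC gate was compared with AE for that reason. The HPC cells carried more ITGA4 and ITGA2B and less of the matrix receptors and laminins of AE. The leukocyte genes ITGAM, ITGB2, ITGAL, ITGAX and ITGB7 were called higher too, mainly from organoid 32.7: ITGB7 was at 15.8 and 2.05 CPM, the second value 2 UMIs and under the 3-count limit of 3.07 CPM, and ITGAX at 27.7 and 7.17 CPM. Of 32 members, 7 were called higher and 15 lower, beside 37% of all genes (16% higher and 21% lower). ITGA4 was higher by 2.98 ± 0.30 (adjusted p = 3.17e-07) with even samples, 85.8 and 91.2 CPM. ITGB2 was higher by 6.73 ± 1.02 (adjusted p = 4.05e-05) with samples of 458 and 48.1 CPM. ITGA2B was higher by 4.70 ± 0.50 (adjusted p = 6.65e-07) with uneven samples as well, 71.3 and 276 CPM, the higher one in organoid 33.10. ITGB1 was lower at -2.41 ± 0.18 (adjusted p = 1e-08), ITGA5 at -3.78 ± 0.35 and LAMA4 at -4.93 ± 0.36, at adjusted p-values of 1.5e-07 and 1.08e-08. LAMB1, LAMC1 and LAMB2 were lower as well, and no laminin was higher. ITGA10 and ITGA3 were also called lower, but ITGA10 was at 0 in both HPC samples and ITGA3 at 1.32 and 0 CPM, so no fold is given. ITGB7 lost its call with halved gate minima. The myeloid genes that move with this result differed between the organoids in the same gate (LYZ and SPP1 at 5312.5 and 1967 CPM in organoid 32.7, 406 and 3.07 CPM in organoid 33.10). Among 11 members at a level to compare, ITGB3, which was not called, lay farthest apart between the HPC samples, by a log2 ratio of 3.49 in size. In all, 6 of them differed over 2-fold between the HPC samples, against 0 of 15 in AE. The SE and p-values use a spread shared by all lineages and do not carry this difference. The part of the myeloid genes in the result was not tested.

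Over 5 blood gates (HPC, ERY, MK, MAC and GRAN) against 5 non-blood gates (AE, VE, CM, EPI and MES), each taken with equal weight and with EO and EPIMES on neither side, 8 of the 9 laminins tested were lower and 0 higher. Members higher in blood were ITGAL, ITGA4, ITGB2, ITGAM, ITGA2B and ITGB7. That made 6 members higher and 22 lower, beside 65.7% of all genes called (25.2% higher and 40.4% lower). Each side is a mean over unlike gates. ITGB5 and ITGA6 were called lower in blood, although MK had the highest mean of ITGB5 (69.4 CPM) and overlapped AE for ITGA6. ITGA4 was called higher although MK lay below AE for it. ITGA2B was called higher although its lowest mean was in MAC (4.27 CPM). ITGA4 was higher in blood by 3.38 ± 0.17 (adjusted p = 6.02e-12). LAMB1 was lower at -2.95 ± 0.13 (adjusted p = 1.86e-12), LAMA4 at -3.28 ± 0.16 (adjusted p = 3.95e-12), ITGA1 at -3.14 ± 0.17 (adjusted p = 1.28e-11) and ITGB1 at -1.58 ± 0.08 (adjusted p = 3.3e-12). ITGA7 was lower at an adjusted p of 0.0471, a call held by only 2 of 10 alternatives, and at 0.0557 with the organoid as a block. ITGAX was not called (adjusted p = 0.0693), but it was called with that block, at 0.0283, and in 4 of 10 alternatives in all. ITGA2B, ITGAL, ITGAM, ITGB7 and LAMA2 lost their calls when a share of the library profile was subtracted, and ITGB7 also without the HPC gate. A gate with less than the amount taken is left without counts by that step. These lost calls therefore do not measure the part of free RNA, which was not tested. ITGAE showed a difference of 0.07 that was not called (adjusted p = 0.58).

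The 2 stromal gates, EPI and MES, differed in LAMC3, ITGA11 and ITGA2 and in a leukocyte group that came from 1 organoid. Of 32 members, 4 were called higher in EPI and 3 higher in MES, beside 4.98% of all genes (2.6% higher in EPI and 2.38% higher in MES). The 3 higher in MES were LAMC3 (-1.77 ± 0.27, adjusted p = 0.000839), ITGA11 (-1.64 ± 0.31, adjusted p = 0.00407) and ITGA2 (-1.84 ± 0.49, adjusted p = 0.0343), and DESeq2 was among the alternatives that ended the last. The 4 higher in EPI were the leukocyte genes ITGAL, ITGAM, ITGAX and ITGB2, at 16.0, 49.8, 14.0 and 135 CPM in organoid 32.7 but 2.70, 1.80, 0.30 and 7.79 CPM in organoid 33.10. The cells with myeloid UMIs in that gate carried 10.0 ALDH1A2 UMIs each in organoid 32.7 against 0.447 in the other EPI cells. Without ALDH1A2 in the EPI list, chosen after seeing the data, ITGB2 stood at 4.09 and 5.40 CPM in EPI, ITGAM and ITGAX at 0 in both organoids, and none of the 4 was called. The whole comparison then held 2 called members. With the organoid as a block, ITGA1, ITGAV and ITGB1 were also called lower in EPI, at adjusted p-values of 0.0182, 0.0394 and 0.044.

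Few members were called between macrophages and neutrophil precursors, of which organoid 33.10 had 25 cells. Of 32 members 1 was called higher and 1 lower in MAC, beside 9.69% of all genes (5.96% higher and 3.73% lower). ITGB5 was higher in MAC by 2.88 ± 0.69 (adjusted p = 0.0102), at 17.2 and 7.65 CPM against 2.24 and 0 CPM. ITGAE was lower by -0.82 ± 0.25 (adjusted p = 0.0431), a call that 4 of 9 alternatives did not keep. ITGB7 missed at an adjusted p of 0.0653 (3.01 ± 0.99) and was called with the organoid as a block, at 0.0478. The p-values over its alternatives lay between 3e-05 and 0.113. ITGB2 and ITGAM gave log2 differences of 0.70 ± 0.79 and 1.15 ± 0.78, neither called.

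Other genes of the pathway were followed as 4 lists. Among 19 adaptors that bind the integrin tail or its activators, all tested, 13 were higher in MK than in ERY and 0 lower, beside 25.8% and 21.7% of all genes, and RASGRP2 (5.96 ± 0.27), VCL (4.62 ± 0.30) and FERMT3 (4.23 ± 0.35) had the largest differences among the called genes of all 4 lists. RASGRP2 switches on the GTPase that activates platelet integrins, FERMT3 encodes the kindlin of blood cells, and VCL encodes vinculin of focal adhesions. VCL reached 1008 and 1233 CPM in MK against 30.9 and 47.8 CPM in ERY. The same list split 3 higher and 1 lower for AE against VE (7.32% and 7.53% of all genes), 4 and 8 for CM against AE (28.3% and 25.2%) and 6 and 7 for HPC against AE (16% and 21%). It split 2 and 2 for EPI against MES (2.6% and 2.38%) and for MAC against GRAN (5.96% and 3.73%), and 8 and 10 for blood against non-blood (25.2% and 40.4%). These shares of all genes are the background for the lists that follow. APBB1IP, which recruits talin to integrins, was higher in blood by 4.78 ± 0.22 (adjusted p = 1.57e-12) and in HPC than in AE by 5.99 ± 0.49. PARVG, the parvin of blood cells, was higher in HPC by 5.84 ± 0.72. LIMS2, a partner of integrin-linked kinase, was higher in CM than in AE by 4.85 ± 0.43 and lower in AE than in VE at -2.28 ± 0.48. APBB1IP (3.34 ± 0.47) and FERMT3 (1.68 ± 0.42) were higher in EPI than in MES, in the gate with the myeloid UMIs, and the kinase gene PTK2B was lower in MAC than in GRAN at -1.44 ± 0.38.

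The 7 basement membrane partners of the laminins, nidogens, perlecan, agrin and collagen chains, were lower in blood in 7 of 7 cases, beside 40.4% of all genes, with a median of -2.59 and NID2, a nidogen, at -3.95 ± 0.25. They were lower in HPC than in AE in 6 of 7 cases (21% of all genes) and higher in AE than in VE in 3 (7.32%), NID2 by 1.73 ± 0.39. They split 2 higher and 3 lower in CM against AE (28.3% and 25.2%) and 4 higher and 1 lower in MK against ERY (25.8% and 21.7%), with 0 called in EPI against MES and in MAC against GRAN. The 6 other laminin receptors were higher in CM than in AE in 5 cases, beside 28.3% of all genes. They numbered 5 lower and 1 higher in blood (40.4% and 25.2% of all genes), with BCAM, the Lutheran receptor, at -3.88 ± 0.36. In HPC against AE 1 was higher and 2 lower, in MK against ERY 3 and 1, and in MAC against GRAN only the syndecan gene SDC2 was called (2.04 ± 0.52). None of them was called in AE against VE or in EPI against MES.

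Of 15 genes listed as other integrin ligands, 13 were tested, and 7 were higher and 4 lower in CM than in AE, beside 28.3% and 25.2% of all genes. The counts were 6 and 0 for MK against ERY (25.8% and 21.7%), 1 and 1 for HPC against AE (16% and 21%), 2 and 0 for MAC against GRAN (5.96% and 3.73%), and 5 and 6 in blood (25.2% and 40.4%). In AE against VE 2 were called, both lower, and in EPI against MES 1. FN1, fibronectin itself, was lower in AE (92.6 and 90.5 CPM) than in VE (812 and 649 CPM), by a log2 difference of -2.91 ± 0.47 (adjusted p = 0.000269). VCAM1, the ligand of ITGA4, was called higher in CM than in AE, at 57.9 and 52.5 CPM against 0.118 and 0.177 CPM. TGFB2, a growth factor secreted in a latent complex, was higher in CM than in AE by 5.37 ± 0.45. It is counted here by the list alone, and whether it acts as an integrin ligand was not tested. NPNT, nephronectin and a ligand of ITGA8, was lower in EPI than in MES, at 1.93 and 0.30 CPM against 196 and 28.7 CPM. ICAM1, a ligand of the ITGB2 group, was higher in MAC than in GRAN by 2.63 ± 0.43, and SPP1, osteopontin, was called higher in HPC than in AE with organoids at 1967 and 3.07 CPM.

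Complexes were then read from their parts. A complex was counted in a lineage where every subunit was present, so that the count says nothing of protein. Of 24 known heterodimers, 16 were complete in at least 1 lineage, and 9 in each of AE, VE and EPIMES, 8 in MES and MK, 7 in CM and EPI, 6 in MAC, 4 in GRAN, 3 in HPC and EO and 1 in ERY. No heterodimer was complete in all 12. ITGAV with ITGB1 came closest, with 11, and ITGA7 with ITGB1 was complete in CM alone, ITGA2B with ITGB3 in MK alone and ITGAL with ITGB2 in MAC alone. In ERY the only complete receptor was ITGA4 with ITGB1, which was not complete in MK. ITGAV with ITGB3 was complete in VE and MK. Without ALDH1A2 in the EPI list, ITGAV (73.6 and 75.0 CPM) and ITGB8 (21.6 and 25.1 CPM) were both present in EPI, which would complete that pair.

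Of 13 known laminin trimers 6 were complete. CM held all 6, which were LAMA1, LAMA2 or LAMA4 with LAMB1 or LAMB2 and LAMC1. AE and VE held the 2 LAMA4 trimers, and no other of the 12 fitted lineages held any. In the PFE cells, which were not counted, LAMA1, LAMB1 (46.8 and 105 CPM) and LAMC1 (52.2 and 63.0 CPM) were each over 20 CPM in both organoids. In EPI, EPIMES and MES the beta and gamma chains LAMB1, LAMB2 and LAMC1 were present, but no alpha chain reached the minimum in both organoids (LAMA5 did in EPI without ALDH1A2 in its list). With the 84 lineage-complex combinations at 20 CPM, 128 were complete at 10 CPM and 42 at 50 CPM, so the counts depend on the minimum.

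**Figure D4:**
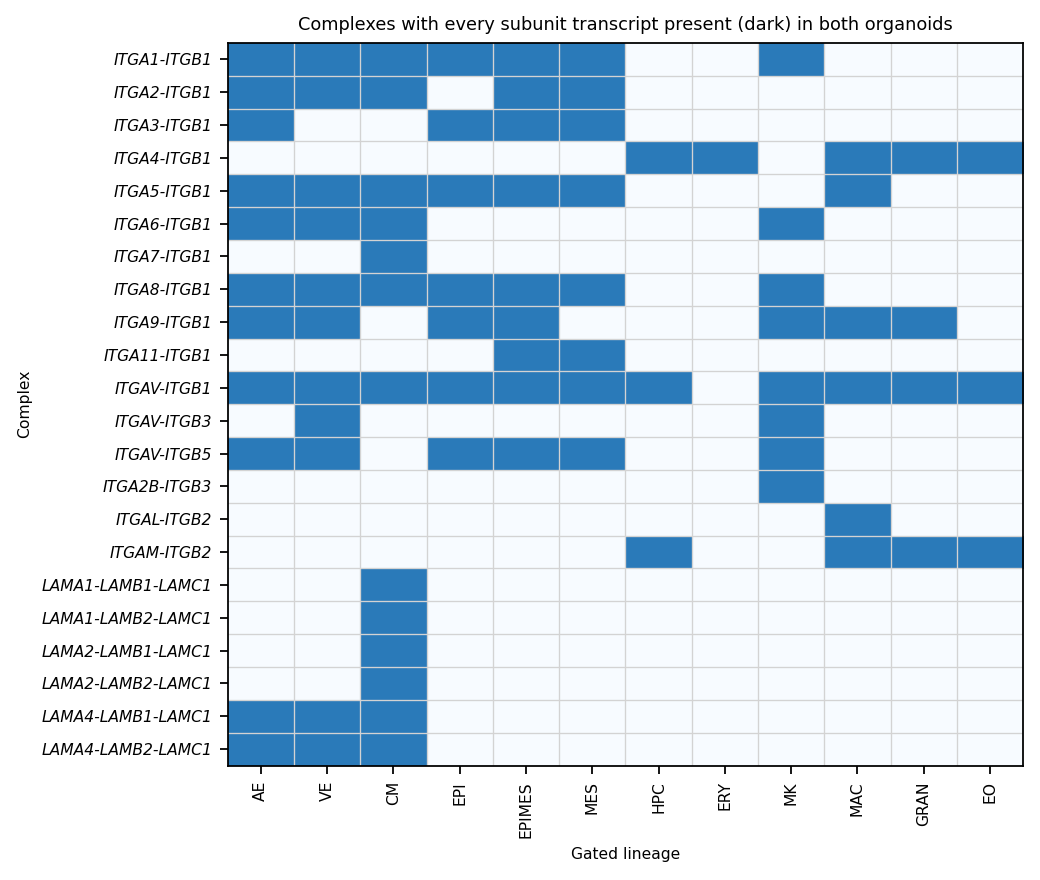
Integrin heterodimers and laminin trimers (rows) with every subunit transcript at 20 CPM or more in both organoids, by gated lineage (columns), where dark cells are complete. All 6 laminin rows are dark in CM, and the LAMA4 rows are dark in AE and VE as well.

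Detection of both subunits in the same cell was measured after each cell was thinned to 4000 UMIs, which leaves out shallower cells. Shares carry exact 95% binomial intervals that cover counting error only. ITGA2B and ITGB3 were found together in 59.3% of MK cells of organoid 32.7 (interval 53.5 to 64.9%) and 61.6% of organoid 33.10 (58.6 to 64.5%). Unthinned, the shares were 48.0% and 59.8%. In MAC, which should lack both, 0 of 275 and 0 of 132 cells had the pair, with upper bounds of 1.33% and 2.76%, at a median of 8174.5 UMIs in organoid 32.7 against 3693.5 UMIs in MK. The product of the single-subunit shares was 56.1% and 59.2%, within those intervals. Thinning removed 54.2% and 43.4% of MK cells.

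ITGA5 with ITGB1 occurred in 60.5% and 55.0% of AE cells and 49.4% and 43.96% of VE cells, against 1.07% and 1.11% of ERY cells. ITGA9 with ITGB1 occurred in 63.9% and 65.3% of VE cells but 21.4% and 20.9% of AE cells. ITGA8 with ITGB1 was found in 70.1% and 80.6% of EPIMES cells, ITGAV with ITGB1 in 28.4% and 31.6% of CM cells and ITGA4 with ITGB1 in 33.3% and 19.6% of EO cells. ITGAM with ITGB2 was found in 22.9% and 27.3% of MAC cells, against 0.112% and 0.0571% of AE cells. The pair was found in 18 of 60 HPC cells in organoid 32.7 (interval 18.8 to 43.2%) but in 0 of 74 in organoid 33.10 (upper bound 4.86%). ITGAV with ITGB3 was found in 7.28% and 8.11% of MK cells, where the product of the single shares was 9.99% and 9.26%, within the exact intervals of 4.62 to 10.8% and 6.54 to 9.92%.

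**Figure D5:**
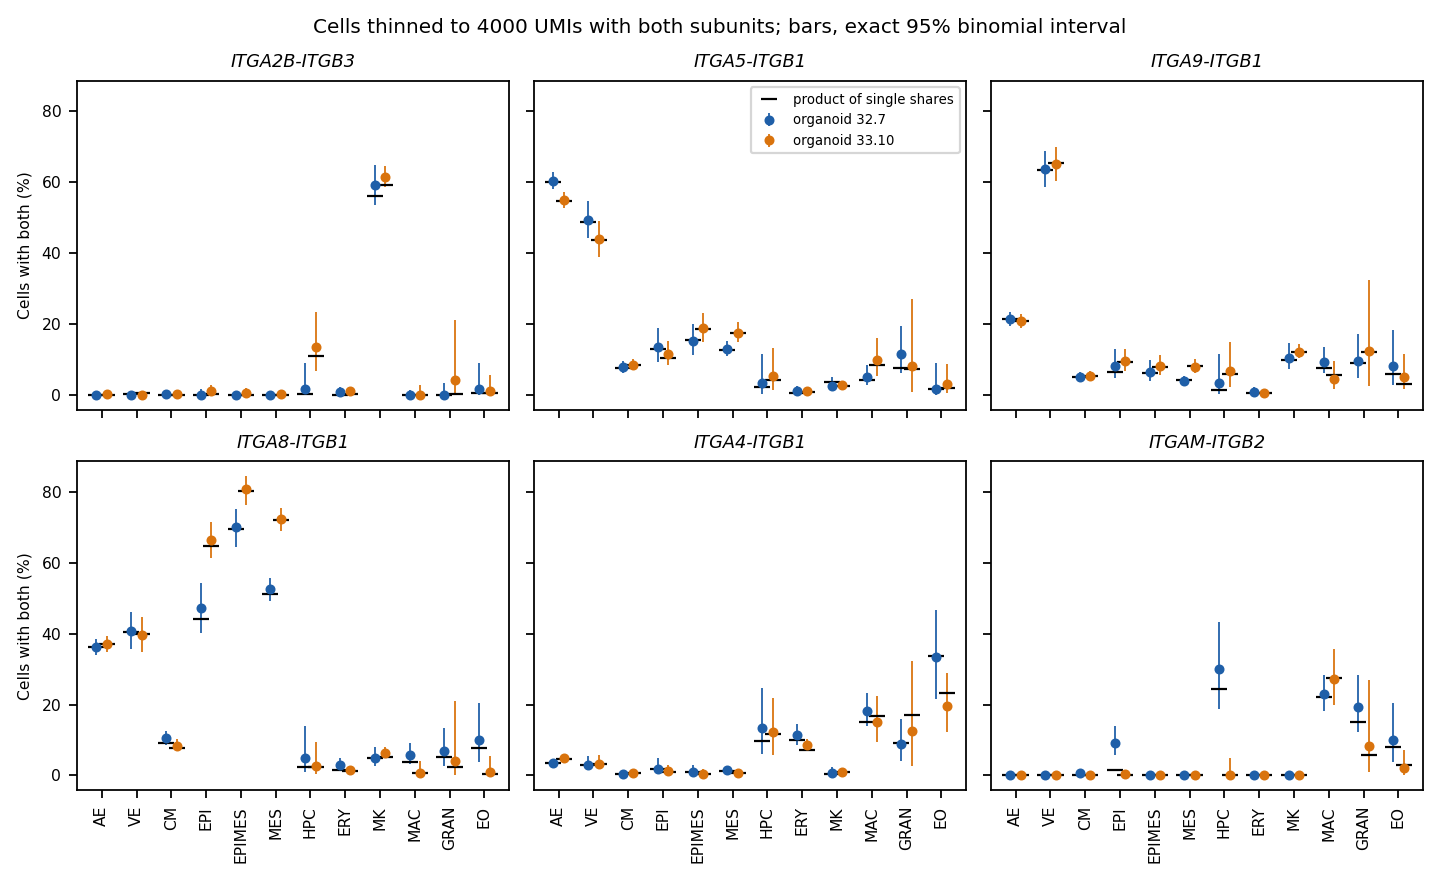
Percentage of cells, thinned to 4000 UMIs, with at least 1 UMI of both subunits for 6 pairs in 12 lineages, by organoid, with exact 95% binomial intervals and black dashes for the product of single-subunit shares. The dashes lie close to the points in the lineages with the highest shares, and ITGA2B with ITGB3 is high in MK alone.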

How the data were processed

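Single-cell libraries of 2 BG-HFOs were made with a Chromium 3′ kit. The authors aligned and counted reads with Cell Ranger 7.0.0 on GRCh38, with intronic reads included, and deposited raw UMI counts per gene and barcode, before removal of ambient RNA. Levels of genes are not compared with each other, since only 3′ ends were sequenced. Cells with 50 to 11000 genes and under 30% mitochondrial UMIs, the filter of the study, were kept. The median was 7842 and 8284.5 UMIs per barcode.

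The members, gates and gene lists were chosen with earlier results of these data known. Minima of summed raw UMIs per cell were 5 (endothelial parent), 4 (AE), 2 (VE), 20 (CM, MK and PFE), 4 (EPI), 5 (MES and MAC), 10 (ERY, GRAN and EO) and 3 (HPC). Cells at the minima of several lineages were left out, which also removes doublets of unlike cells. EPI with MES is the exception, since cells at both minima were kept as EPIMES. The median in EPIMES was 13696 and 12875 UMIs, against 7708 and 7553 in EPI and 7919 and 7793 in MES. No doublet caller was run. Doublets of like cells remain, and the share of EPI with MES doublets in EPIMES was not tested. Counts were summed per lineage and organoid, for lineages with at least 20 cells in each organoid, so PFE was left out and the planned comparison of PFE with EPI was not made. One edgeR 4.0.16 model (R 4.3.3; TMM, filterByExpr, quasi-likelihood test, Benjamini-Hochberg adjustment over all genes) held 12 lineages. The script was tested on simulated data. DESeq2 1.42.0 was an alternative. Alternatives also included RLE size factors, no filter on low counts, halved or doubled gate minima, a filter of 1500 genes and 15% mitochondrial UMIs, removal of the 5% of cells with most UMIs, subtraction of 10% of each library's own profile, and each organoid alone.

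Lineages of the same organoid are paired by specimen. Over 66 pairs of lineages, the deviations from the lineage means had correlations from -0.0223 to 0.343 (median 0.103), with 37 over 0.1, and a fit with the organoid as a block is the paired alternative.

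Genes named in full were members at 20 CPM in both organoids in at least 1 lineage, and of the other pathway genes the 3 largest called differences in each comparison. For shares of cells, UMIs were thinned to 4000 per cell. Intervals of 95% are exact (Clopper-Pearson) and cover counting error only. Promoters came from RefSeq and the PELO overlap from GENCODE release 44. Protein sequences were not used here. Figures were drawn with matplotlib 3.10.9.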

Additional observations from a re-analysis of the deposited data

Results flagged for a closer look

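LAMA1, the laminin alpha chain of early basement membranes, appeared in the PFE-gated cells, which no comparison used. Its level there was 46.8 CPM in organoid 32.7 (26 UMIs in 86 cells) and 112 CPM in organoid 33.10 (16 UMIs in 11 cells). In the other 12 lineages its highest value was 23.8 CPM, in CM, so both PFE values lay above every other gate, with no test. The limit that 3 counts allow was 5.40 and 21.0 CPM in these cells. The gate carried the endoderm genes FOXA2 (39.6 and 35.0 CPM) and APOB (1059 and 567 CPM), which were not part of its rule.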

How the results depend on the processing

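Of 111 called member differences, tested 1032 times under the alternatives, 986 kept direction and call, 44 kept direction only and 2 reversed. In single organoids, where no test is possible, 0 of 222 values reversed, but 63 of 111 without replicate 1 and 58 of 111 without replicate 2 moved by more than their SE. The single-organoid values are differences of log2(CPM + 1) without TMM, set against the edgeR values. A move therefore mixes the change of measure with the loss of an organoid. With RLE size factors all 111 kept their call. DESeq2 moved the median of all genes from -0.19 to 0.13 in HPC against AE and from -0.20 to 0.13 in blood against non-blood, from 0.05 to 0.15 in CM against AE, and RLE moved it from 0.16 to 0.28 in MK against ERY. With the organoid as a replicate block, 1 member call was lost and 9 were gained (10, 18, 22, 7, 24, 2 and 28 called members became 12, 19, 22, 10, 25, 3 and 28 in the order AE against VE, CM against AE, HPC against AE, EPI against MES, MK against ERY, MAC against GRAN and blood against non-blood).

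Without ALDH1A2 in the EPI list, added after seeing the data, EPI against MES gave 563 called genes in place of 908 (222 higher and 341 lower, from 474 and 434) and 2 members in place of 7. ITGAM (-5.03) and ITGAX (-2.76) reversed there, where both were at 0 in EPI and the fitted values depend on the prior count. Without the filter on low counts, that comparison gave 1780 genes and 12 members, and MAC against GRAN gave 7 members in place of 2. Doubled gate minima gave MAC against GRAN 2712 genes in place of 1768 and 4 members, and the stricter cell filter 1 member. Halved minima gave HPC against AE 4376 genes in place of 6747 and left too few GRAN cells to fit that gate. The cause of these shifts was not tested. Complete complexes numbered 84, with 128 at 10 CPM, 42 at 50 CPM and 96 to 103 in single organoids.

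Shares of cells with both subunits, as a mean of organoids, rose with depth. From 60.4% at 4000 UMIs, ITGA2B with ITGB3 in MK went to 36.0% at 2000 and 78.6% at 8000 UMIs. ITGAM with ITGB2 in MAC (25.1%) went to 13.0% and 49.8%, ITGA5 with ITGB1 in AE (57.8%) to 33.2% and 80.0%, ITGA9 with ITGB1 in VE (64.6%) to 36.9% and 81.5%, ITGA4 with ITGB1 in EO (26.5%) to 10.0% and 46.4%, ITGA8 with ITGB1 in EPIMES (75.3%) to 51.6% and 87.6%, and ITGAV with ITGB1 in CM (30.02%) to 11.6% and 58.2%. Their single-organoid ranges were, in the same order, 59.3 to 61.6%, 22.9 to 27.3%, 55.0 to 60.5%, 63.9 to 65.3%, 19.6 to 33.3%, 70.1 to 80.6% and 28.4 to 31.6%. With 2 organoids of 1 line and gates built from few genes, small lineages limit what could be called.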

Other observations

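The EO gate entered no comparison. Its 7 members present were all present in HPC as well. Its 74 and 101 cells held the eosinophil receptor IL5RA at 120.3 and 118 CPM and CPA3, a protease gene of mast cells and basophils, at 72.2 and 97.5 CPM, so that the gate was not of eosinophil genes alone. ITGA4 reached its highest level over all lineages there, 387 and 192 CPM, with ITGB1 at 185 and 203 CPM, ITGB2 at 132 and 109 CPM and ITGAM at 51.7 and 23.3 CPM. ITGA2B was present as well, at 66.2 and 125 CPM, while ITGB3 stood at 3.61 and 5.66 CPM. All 11 laminin chains together gave 49.3 and 30.8 CPM.

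The organoids agreed unequally across lineages. Over members at a level to compare, the median size of the log2 ratio between organoids was 0.08 in AE (15 members) and 0.10 in CM (16). In VE (15) and MK (12) it was 0.16. It was 0.25 in EPIMES (17), 0.28 in GRAN (9), 0.38 in EPI (16), 0.44 in ERY (5) and 0.45 in MAC (11). The largest values were 0.52 in MES (16), 0.88 in EO (8) and 1.33 in HPC (11). In MES, ITGA1, ITGA8 and ITGB1 were all higher in organoid 33.10, and 0 members there differed over 2-fold. In EPI, 2 members differed over 2-fold. Differences that rest on the other gates, HPC most of all, therefore carry a wider spread between specimens than those among AE, VE, CM and MK. The SE and p-values, with 1 spread shared by all lineages, do not show this.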
